A study of Homo sapiens with 26 samples.

Results

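The 10 genes described here act in protein quality control of the mitochondrion: Chchd2, Chchd10 and Chchd3, the matrix chaperone genes Hspd1, Hspe1 and Hspa9, and the protease genes Lonp1, Clpp, Clpx and Htra2. They are 10 of the 55353 gene rows in each of the input count files, found by their names in the first column. Chchd2 was chosen by a measured value, the log2 ratio of its row between the input libraries, as the lowest gene with salubrinal among rows with at least 200 counts and no Gm, Rik or clone name. Its input values are therefore a description and support nothing. The others were taken by function, with the input results of these data already known.

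Most mitochondrial proteins are made in the cytosol, imported as unfolded chains, folded by the chaperones of the matrix and removed by proteases when damaged. CHCHD proteins carry paired cysteines that are oxidised in the intermembrane space, where they serve the cristae and the respiratory chain. Trouble in this system can activate the integrated stress response (ISR), in which phosphorylation of the translation factor eIF2α lowers general protein synthesis and the transcription factor ATF4 is made.

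SK-MEL-28, a human melanoma line, was kept in salubrinal, a compound that blocks removal of phosphate from eIF2α, for 72 h, or left untreated (the groups titled control). Each treatment had 1 input RNA library and 3 replicates of each of 4 sucrose gradient fractions named 40S, 60S, 80S and polysome. That made 26 samples, and the labels give 12 min in cycloheximide at 100 µg/mL for inputs and fractions alike. The study asked what is bound to ribosomes with and without the ISR switched on. All groups come from a single line; the cell-line field numbers each sample differently, and the titles, which all name SK-MEL-28, were followed.

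The salubrinal input held 10245548 counts on gene rows and the untreated input 12068784. Of these, 1308224 and 6839261 lay on the row CT010467.1, so the totals do not compare the depth left for the other rows. The fraction files held 361480 to 693970, of which 873 to 23714 lay outside ribosomal RNA rows. The input rows carry mouse-style symbols although the cells are human and the submitters' processing notes name the human build hg19, and no source used here names the reference behind these rows. A low count on an input row is therefore no measure of how much of the transcript the cells hold, and only the same row is compared between the libraries. Of 8 pigment-cell markers 6 had at least 50 input counts over both libraries; Mlana had 0 counts in both, and Tyrp1 had 0 with salubrinal and 5 without. Dct, Sox10, Pmel and Mitf were lower by 2-fold or more with salubrinal, and the median of the 6 was -1.01. Tyr, at -0.04 (-0.16 to 0.08), and S100b, at 0.15 (0.003 to 0.31), were not lower to that degree. Under scaling by total counts Dct alone stayed past 2-fold downward, and the median was -0.07. The part of this in the values below was not tested. Of 12 markers of epithelial, connective tissue, blood and vessel cells only Krt18 and Lum reached 50.

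Chchd2 and Chchd10 were the lowest rows of the set. Chchd2 encodes a protein of the intermembrane space that also acts in the nucleus on respiratory genes, Chchd10 its close relative, and Chchd3 a subunit of the complex that shapes cristae junctions. Chchd2 was 7.25-fold lower with salubrinal, Chchd10 was also past 2-fold but stood at -0.22 (log2) under scaling by total counts, and Chchd3 was nearly level.

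Chchd2 had 46 counts in the salubrinal input and 214 in the untreated input, or 3.24 and 24.6 CPM (counts scaled to library size by trimmed means of M values, TMM). The log2 ratio of salubrinal over untreated was -2.86, with a 95% interval of -3.42 to -2.46. With 1 library per treatment no test could be made, and the intervals, from the exact binomial distribution, reflect counting error alone. Fewer transcripts per cell and fewer cells that express a gene cannot be told apart in such bulk RNA.

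Chchd10 had 45 and 62 counts, or 3.17 and 7.12 CPM, and a log2 ratio of -1.12 (-1.75 to -0.59). Its interval spans the 2-fold line, so the size is loosely known. Chchd3 had 817 and 575 counts, or 57.5 and 66.0 CPM, and a ratio of -0.20 (-0.35 to -0.04). The difference between 2 rows of the same libraries does not depend on the scaling; 23 pairs of rows were compared this way, picked after their values were seen. Chchd2 lay below Chchd3 by -2.72 (-3.24 to -2.23), and Chchd10 lay below Chchd3 by -0.97 (-1.58 to -0.37). Nothing is read from the Chchd2 difference, since Chchd2 was chosen for its low ratio.

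The scaling sets the signs of the small ratios. Scaled by total gene-row counts in place of TMM, the median of all rows moved by 0.93 and every member by 0.91 to 0.94. Chchd3, Hspd1, Hspe1 and Htra2 then turned positive, at 0.74, 0.81, 0.93 and 0.73, and Hspa9, Clpp and Clpx passed 2-fold. Under this scaling Chchd2 (-1.94) and Chchd10 (-0.22) were the lowest and Hspa9 (1.73) the highest of the 10. Nearly the same amount is added to every row, so the order could hardly change and is no check. The totals include the row CT010467.1, which held 1308224 counts with salubrinal and 6839261 without. TMM without CT010467.1 and mitochondrial rows moved the members by only -0.00034 to -0.00033. The part of CT010467.1 in the move under scaling by total counts was not tested.

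**Figure D1:**
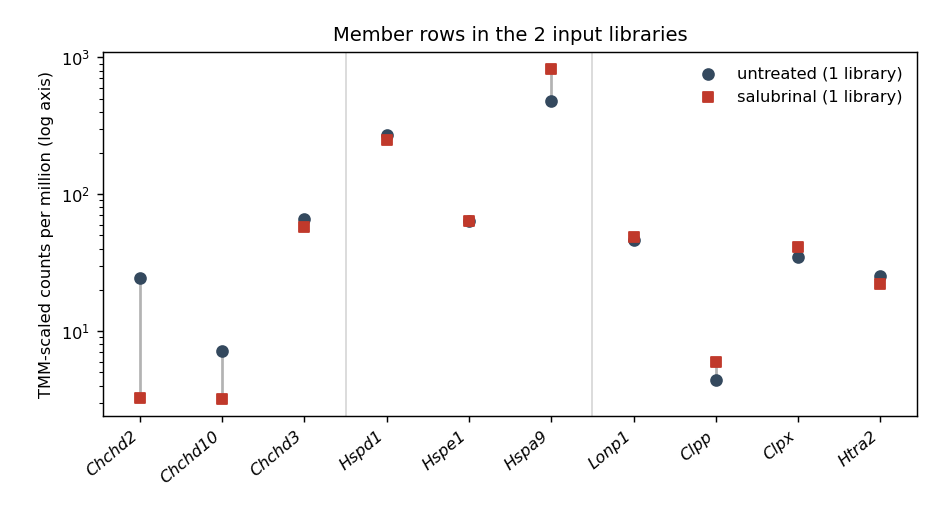
TMM-scaled CPM (log axis) of the 10 member rows in the untreated input library (circles) and the salubrinal input library (squares), 1 library each, so no error bar is drawn. Chchd2 stands at 3.24 with salubrinal against 24.6, and Hspa9 at 828 against 477, while Hspe1 and Lonp1 nearly coincide.

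Among the 10614 input rows with at least 50 counts over both libraries, 3.8% were lower by 2-fold or more with salubrinal and 2.75% higher by as much, 6.55% in both directions together. Of the 10 members, all of which reached 50 counts, 2 were lower by 2-fold or more and 0 higher. The rule used this contrast for Chchd2, so nothing is read from that count. The median log2 ratio of the members was -0.07, beside 0.02 over all such rows. In the class of rows with the fewest counts, which held Chchd10 and Clpp, 6.69% were lower by 2-fold or more.

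Just outside the rule that brought in Chchd2 stood Trpm1, a melanocyte channel gene (-2.57), Tns1, a focal adhesion gene (-2.49), and Dct, a melanin-synthesis enzyme gene (-2.37), the next rows upward with at least 200 counts. Among rows with at least 200 counts, CT010467.1, a row with a clone name (-3.09), and 1 row of the unnamed Gm or Rik kind lay below Chchd2. Among those with at least 50 counts, Slc5a4b (-3.44) and H2bc15 (-3.32) lay below it too, both named after their values were seen. Slc5a4b and H2bc15 did not reach 200 counts. Of Chchd2, Trpm1, Tns1 and Dct, Chchd2 had the fewest, with 260 over both libraries against 459 for Trpm1.

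The stretch before the human CHCHD2 start is shown because this gene set the low end of the set. It is chr7:56106477-56106726 of GRCh38.p14, minus strand, 5′ to 3′ and ending at the base before the start, from RefSeq; the capitals mark a match to CCGGAAGT, a binding sequence of ETS factors, on the opposite strand.
CHCHD2 upstream: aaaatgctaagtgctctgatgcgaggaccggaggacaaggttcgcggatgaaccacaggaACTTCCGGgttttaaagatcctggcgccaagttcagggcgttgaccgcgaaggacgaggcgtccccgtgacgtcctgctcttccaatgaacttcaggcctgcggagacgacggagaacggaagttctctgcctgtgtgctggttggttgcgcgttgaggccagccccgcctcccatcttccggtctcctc

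The row named as a pseudogene of Chchd2 is described beside it, with nothing read from their difference, since Chchd2 was chosen for its low ratio. Chchd2-ps had 292 counts with salubrinal and 258 without, a log2 ratio of -0.52 (-0.77 to -0.28), and the Chchd2 row lay below it by -2.39 (-2.95 to -1.86). The copy row held 86.4% of the counts of both rows together with salubrinal (95% exact interval 82.3 to 89.9%) and 54.7% without (50.05 to 59.2%). Summed over both rows, 338 counts stood against 472, a ratio of -1.18 (-1.39 to -0.98). A read that fits more than 1 place equally well enters no gene row; such reads made up 48.6% of all counts in the salubrinal file and 52.6% in the untreated file. Reads set aside as ambiguous made up 3.54 and 9.50%, and reads not aligned 27.3 and 14.4%. The part of these differences in the Chchd2 value was not tested.

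In all, 4 of the 10 members have rows with their own name and a -ps (pseudogene) or -rs (related sequence) ending, 14 such rows, of which 8 reached 50 counts. In the other families some copy rows matched the member and some lay above it. Hspa9-ps1 had a ratio of 0.71 (0.57 to 0.85), and Hspa9 differed from it by 0.08 (-0.07 to 0.23). Hspd1-ps3 had 7443 and 5048 counts, more than the 3525 and 2360 of Hspd1 itself, and the ratio of Hspd1 differed from its ratio by 0.02 (-0.07 to 0.11). The rows Hspd1-ps4 and Hspd1-ps5, with ratios of 0.34 and 0.37, lay above Hspd1 by 0.47 (0.31 to 0.63) and 0.50 (0.25 to 0.75). Summed with their copies, Hspd1, Hspe1 and Hspa9 had ratios of -0.08, 0.05 and 0.78, each inside the interval of the single row.

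**Figure D2:**
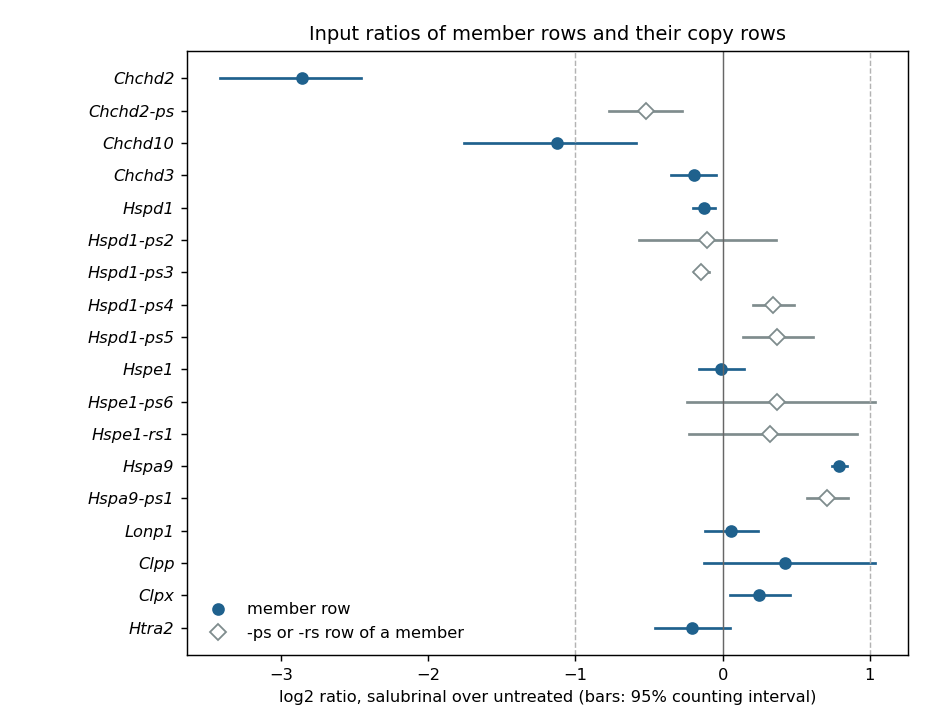
The log2 ratio of salubrinal over untreated input (x axis) for each member row (filled circles) and for each -ps or -rs row with at least 50 counts (open diamonds), with 95% exact binomial intervals and dashed lines at 2-fold. The interval of Chchd2 (-3.42 to -2.46) lies apart from that of Chchd2-ps (-0.77 to -0.28), while Hspa9 and Hspa9-ps1 overlap.

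Other genes of this structural class ranged from -1.09 to 0.60. Of 18 listed genes of cysteine-pair proteins and their import relay, 12 reached 50 counts, with 1 lower by 2-fold or more, 0 higher by as much, and a median of -0.39 (0.54 under scaling by total counts, with 4 higher by 2-fold or more and 0 lower). Under TMM scaling the interval lay below 0 for 5 of the 12 and above 0 for 0, beside 23.0% and 25.1% of all rows with at least 50 counts. The lowest were Chchd7 at -1.09 (-1.74 to -0.54), from 43 and 58 counts, and Coa4, an assembly factor gene of cytochrome oxidase, at -0.84 (-1.66 to -0.13). The highest were Coa6, another such assembly factor gene, at 0.60 (-0.01 to 1.30) and Chchd6, a relative of Chchd3, at 0.47 (-0.30 to 1.37). Chchd10 and Chchd7 differed by -0.03 (-0.88 to 0.82). Chchd4, the gene of the receptor that oxidises these proteins on import, stayed under the 50-count line with 31 and 15 counts.

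Genes of the cristae junction complex MICOS and its partners ranged from -0.41 to 0.47. Of 12 listed names 10 had a row and 8 reached 50 counts, with 0 at least 2-fold apart and a median of -0.24 (0.69 under scaling by total counts, with 1 higher by 2-fold or more). The interval under TMM scaling lay below 0 for 5 of the 8 and above 0 for 0. Over all rows with at least 50 counts these shares were 23.0% and 25.1%. Samm50, a gene of the outer-membrane sorting complex, stood lowest at -0.41 (-0.57 to -0.26), followed by Opa1, a gene of inner-membrane fusion, at -0.38 (-0.46 to -0.29). Mtx2, a gene of the same sorting machinery, was at -0.00475 (-0.16 to 0.15), second to Chchd6, and Chchd3, itself in the list, was at -0.20.

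The chaperone members differed among themselves. Hspa9 (mortalin), which pulls imported chains into the matrix and folds them, was higher with salubrinal, while the chaperonin subunit Hspd1 and its lid Hspe1, which fold proteins in a closed chamber, were nearly level. None of the 3 was 2-fold apart under TMM scaling.

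Hspa9 had 11748 counts with salubrinal and 4158 without, or 828 and 477 CPM, and a log2 ratio of 0.79 (0.74 to 0.85), a level 1.73-fold higher. Of rows with at least 50 counts 94.3% had a ratio no higher than that of Hspa9. Hspd1 had 248 and 271 CPM and a ratio of -0.13 (-0.20 to -0.05), and Hspe1 had 899 and 555 counts, 63.3 and 63.7 CPM, and a ratio of -0.01 (-0.16 to 0.15). Hspa9 lay above Hspd1 by 0.92 (0.83 to 1.01) and above Hspe1 by 0.80 (0.64 to 0.97), differences that hold under any scaling of these libraries.

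HSPD1 and HSPE1 are neighbours on human chromosome 2 that are read in opposite directions, and their ratios differed by -0.12 (-0.29 to 0.06). The 104 bases between their start sites, chr2:197500275-197500378 of GRCh38.p14, are shown on the plus strand, the HSPE1 strand, because this pair had like ratios.
HSPD1 to HSPE1: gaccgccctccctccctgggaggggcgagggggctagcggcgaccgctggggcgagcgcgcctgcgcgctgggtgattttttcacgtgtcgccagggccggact
The stretch before HSPA9, chr5:138575402-138575651 on the minus strand, is shown as that of the highest member.
HSPA9 upstream: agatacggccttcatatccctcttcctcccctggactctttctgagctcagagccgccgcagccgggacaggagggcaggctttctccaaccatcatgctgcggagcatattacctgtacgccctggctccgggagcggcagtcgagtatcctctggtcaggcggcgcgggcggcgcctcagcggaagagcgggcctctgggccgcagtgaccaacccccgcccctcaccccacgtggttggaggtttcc

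**Figure D3:**
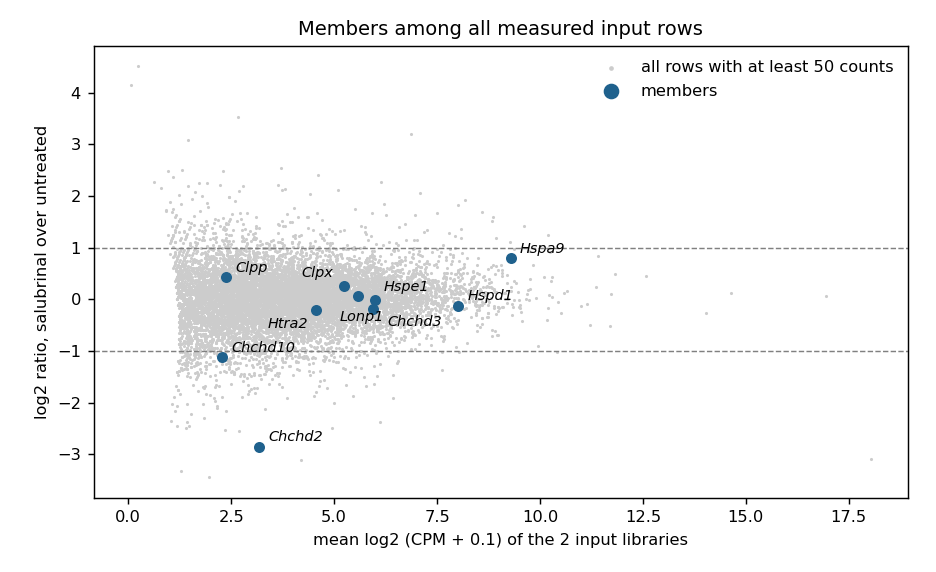
Each grey point is an input row with at least 50 counts, placed by its mean log2 (CPM + 0.1) over the 2 input libraries (x axis) and its log2 ratio of salubrinal over untreated (y axis), with dashed lines at 2-fold; members are in blue. Chchd2 at -2.86 lies below nearly all rows, with Hspa9 (0.79) on the upper side of the cloud and Chchd10 (-1.12) on its lower side.

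Motifs were searched on both strands in the 250 bases before each start, and 3 of the 9 members with a RefSeq window held one. The composite C/EBP-ATF response element, TGATGNAA, to which ATF4 binds, was in 0 of the 9 and in 3.89% of 27305 genes. CLPP had no window. The heat shock element of alternating GAA and TTC units was in HSPD1 alone of the 9 members, and in 0.557% of genes. Its overlapping matches lie before the inner of the HSPD1 start sites, at chr2:197500065-197500088 with 3 bases on either side, minus strand, in capitals.
HSPD1 element: attTTCTGGAAAGTTCTGGAAccg
The palindrome bound by the nuclear respiratory factor NRF1, in capitals in its line, was in LONP1 alone of the 9 and in 1.28% of genes, at chr19:5720635-5720660 with 8 bases on either side, minus strand.
LONP1 match: gaagccctGCGCATGCGCatcaatga
CCGGAAGT was in CHCHD2 alone of the 9 and in 4.13% of genes. A match describes letters in these windows only.

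Of 10 listed helpers of the matrix chaperones 8 reached 50 counts, with 0 at least 2-fold apart and a median of -0.09 under TMM scaling. Under scaling by total counts all 8 lay above 0, 1 of them by 2-fold or more, with a median of 0.79. Dnajc19, which encodes a partner of the import motor that works with mortalin, was highest at 0.68 (0.21 to 1.21), from 127 and 48 counts, followed by the cochaperone gene Dnaja3 at 0.05 (-0.16 to 0.27). Trap1, a mitochondrial member of the Hsp90 family, was lowest at -0.56 (-0.70 to -0.43), then the disaggregase gene Clpb at -0.48 (-0.70 to -0.27). The interval of Dnajc19 holds the ratio of Hspa9.

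Relatives of the matrix chaperones in other compartments gave a frame for Hspa9. Of 16 listed genes 15 reached 50 counts, with a median of 0.09, 0 higher by 2-fold or more and 1 lower under TMM scaling. Under scaling by total counts the median was 1.03, with 10 higher by 2-fold or more and 0 lower. Hspa5, the endoplasmic reticulum relative of Hspa9, was highest at 0.57 (0.52 to 0.63) and Hspa8, its constitutive cytosolic relative, next at 0.28 (0.18 to 0.38). The inducible Hspa1b was lowest at -1.12 (-1.42 to -0.85), and Hspa4 stood at -0.17 (-0.22 to -0.12). Hspa9 lay above Hspa5 by 0.22 (0.15 to 0.30), above Hspa8 by 0.51 (0.40 to 0.62) and above Hspa4 by 0.96 (0.89 to 1.04).

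The protease members stood close to level. Lonp1 encodes a matrix protease that clears oxidised proteins, Clpx the unfoldase and Clpp the peptidase chamber of another matrix protease, and Htra2 a protease of the intermembrane space that can also act in cell death. None was 2-fold apart under TMM scaling; 3 of the 4 had ratios above 0, and Clpx alone had an interval above 0.

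Lonp1 had 686 counts with salubrinal and 404 without, or 48.3 and 46.4 CPM, and a log2 ratio of 0.06 (-0.12 to 0.24). Clpx had 588 and 303 counts, 41.4 and 34.8 CPM, and a ratio of 0.25 (0.05 to 0.46). Clpp had 84 and 38 counts, 5.92 and 4.36 CPM, and a ratio of 0.42 (-0.13 to 1.03), so its counts allow anything from a slight decrease to a doubling.

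Htra2 had 312 and 221 counts, 21.98 and 25.4 CPM, and a ratio of -0.21 (-0.46 to 0.05). Clpp and Clpx, parts of the same machine, differed by 0.19 (-0.42 to 0.82), and Clpx and Lonp1 by 0.19 (-0.08 to 0.47). Clpx lay above Htra2 by 0.46 (0.13 to 0.79), the only protease pair of the 5 compared whose interval left out 0. Hspa9 lay above Lonp1 by 0.73 (0.55 to 0.92) and above Clpx by 0.54 (0.33 to 0.75); its difference from Clpp was 0.35 (-0.24 to 0.93).

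Other mitochondrial proteases and their scaffold had a median of -0.01 over 16 of 18 listed genes with 50 counts, 0 of them 2-fold apart under TMM scaling (under scaling by total counts, 3 were higher by 2-fold or more and the median was 0.91). Yme1l1, a gene of an inner-membrane protease, was highest at 0.45 (0.34 to 0.56), then Pmpcb, a subunit gene of the presequence-cleaving peptidase, at 0.34 (0.19 to 0.49). The other subunit gene of that peptidase, Pmpca, stood at -0.37 (-0.58 to -0.15). Immp2l and Spg7, genes of further inner-membrane proteases, were lowest at -0.55 (-1.09 to -0.04) and -0.52 (-0.87 to -0.18).

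**Figure D4:**
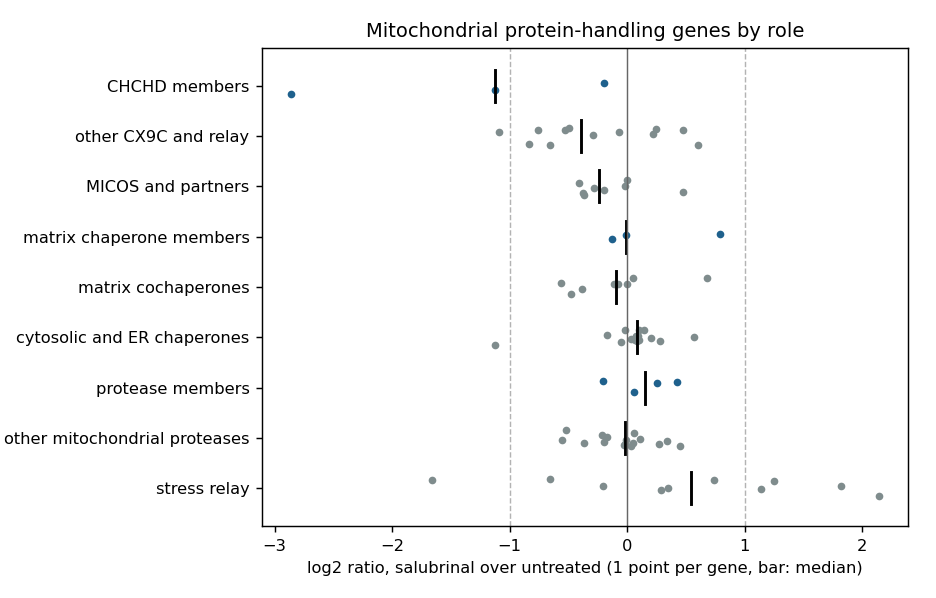
The log2 ratio of salubrinal over untreated input (x axis) for every gene with at least 50 counts in each list, 1 point per gene, with black bars at the medians and dashed lines at 2-fold; member lists are in blue. The protease and cochaperone lists stay within 2-fold, and the CHCHD members reach -2.86. The list labelled stress relay, of genes of the ISR and of stress signalling around it, spans -1.66 to 2.14.

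Listed genes of the ISR and of stress signalling around it spanned -1.66 to 2.14. Of 13 listed, 10 reached 50 counts, with 4 higher by 2-fold or more, 1 lower by as much and a median of 0.54 (7, 0 and 1.48 under scaling by total counts). Ddit3 (CHOP) and Atf4, transcription factors of the response, were highest at 2.14 and 1.82. Atf5, a factor tied to the mitochondrial unfolded protein response, was lowest at -1.66 (-2.57 to -1.01), from 22 and 46 counts. Dele1, whose product carries the mitochondrial signal to the eIF2α kinase encoded by Eif2ak1, was next at -0.65 (-1.13 to -0.20). Eif2ak1 itself stood at 0.29 (0.04 to 0.55), and at 1.22 under scaling by total counts. The secreted markers Gdf15 and Fgf21 had 0 counts in both libraries.

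In the gradient fractions, whose rows carry human symbols, the members other than HTRA2 had few counts. Over the 24 files the 10 rows held 256 counts, of which HTRA2 held 218 (85.2%). CHCHD3, CLPP and CLPX had 0 counts in all 24 files. The limit set by 3 counts is 4.32 to 8.30 CPM of gene-row counts, depending on the file. Those counts are nearly all ribosomal RNA, with 873 to 23714 per file outside it, so this limit cannot be set beside the input CPM. Nor can it be set beside the TMM-scaled polysome CPM given below, which rest on rescaled library sizes. The other 6 held 38 counts in all and at most 3 in a file: 13 each for HSPD1 and LONP1, 6 for HSPA9, 3 for CHCHD2, 2 for HSPE1 and 1 for CHCHD10. Of 55 rows named as pseudogenes of members 1 had any count, with 2. Treatment could not be compared for these 9 genes at this depth.

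The 60S, 80S and polysome files of a replicate number held alike counts outside ribosomal RNA rows, with chi-square per degree of freedom of 1.01 to 1.13, against 1.57 to 8.15 between the replicates of a group. With the 40S file as titled it was 0.936 to 1.03 in 4 of the 6 sets but 1.23 and 1.47 in control replicates 1 and 2. The 4 fractions of a replicate number are therefore not read as independent, and only the polysome was tested.

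In the polysome files HTRA2 had 1, 0 and 14 counts in salubrinal replicates 1, 2 and 3 and 19, 2 and 13 in control replicates 1, 2 and 3. The groups overlapped, and the low files were those with few counts outside ribosomal RNA (2628, 931 and 5649, against 18454 to 23549 in the others). Scaled by TMM the means were 5.54 ± 5.53 CPM with salubrinal and 8.20 ± 3.25 in the control (SD, n = 3). The fitted log2 fold change was 0.10 ± 0.49 (SE; edgeR quasi-likelihood test, Benjamini-Hochberg adjusted p = 0.935), with the sign opposite to that of the means. Of 241 rows tested 9 passed (3.73%), and HTRA2, the only member among them, did not; its interval of -0.87 to 1.07 leaves a 2-fold difference upward within reach. With the 4 fraction files of each replicate number summed as titled, the fold change was 0.86 (edgeR adjusted p = 0.0546). The sums may mix replicates, since the control 40S files titled 1 and 2 held 5705 and 21295 counts outside ribosomal RNA rows, near those of the other fractions of control 2 and 1. Without the 40S files it was 0.74 (edgeR adjusted p = 0.254). Without salubrinal replicate 3, which held 14 of the 15 salubrinal counts, it was -1.29 (adjusted p = 0.664). The labels do not say whether replicates were grown separately, so the p-values rest on a spread that may be technical.

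HTRA2 shares 302 bases with AUP1, a gene of lipid droplets and protein degradation, and 1299 bases with LOXL3, a lysyl oxidase gene, both on the opposite strand (chr2:74529405-74533556 for HTRA2, GRCh38.p14). Over the 24 files AUP1 had 4 counts and LOXL3 90. In the input Aup1 had 2002 and 1498 counts and a ratio of -0.29 (-0.38 to -0.19), and Loxl3 3224 and 807 counts and a ratio of 1.29 (1.18 to 1.41). The kit marks strand, and no source used here gives the strand setting of the counting. Whether the HTRA2 row holds reads of these neighbours from the shared bases is therefore not known.

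CHCHD10 had 1 count, while C22orf15, which shares 30 bases with it, had 319. C22orf15 had 2, 0 and 25 counts in the salubrinal polysome files and 19, 9 and 20 in the control ones, with a fold change of 0.38 ± 0.42 (log2, SE; edgeR adjusted p = 0.777). Here too the sign is opposite to that of the means, 10.3 ± 9.90 CPM with salubrinal and 15.6 ± 6.67 in the control (SD, n = 3). RPL36, a ribosomal protein gene that shares 42 bases with LONP1, had 23 counts.

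**Figure D5:**
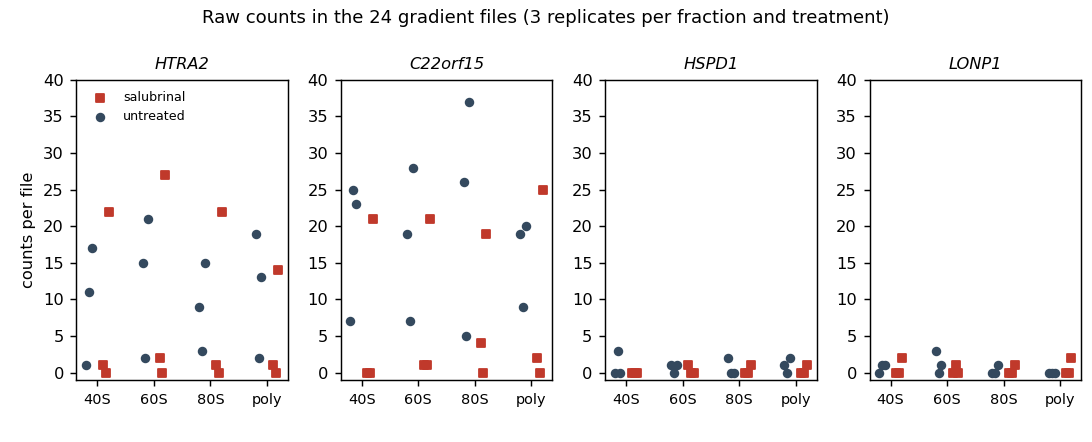
Raw counts per file (y axis) in the 4 gradient fractions (x axis) for HTRA2, C22orf15, HSPD1 and LONP1, with salubrinal replicates as squares and untreated ones as circles, 3 per fraction and treatment. HTRA2 reaches 27 counts, in a salubrinal file, and C22orf15 reaches 37, in an untreated file, while HSPD1 and LONP1 never pass 3.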

How the data were processed

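The authors deposited read counts per gene row, not normalized, for each of the 26 samples. Per the labels' protocols the libraries came from a stranded total RNA kit. Build hg19, DESeq, HTSeq 0.5.3p3, SAMtools 0.1.19.24, STAR and FastQC 0.11.5 are named per the submitters' processing notes. Rows that name no gene were left out; gene rows held 7.06% of the salubrinal and 5.94% of the untreated input counts.

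Groups were taken from titles. Input log2 ratios used a prior count of 2 after TMM scaling, and rows needed 50 counts over both libraries. The polysome groups, 3 against 3, were compared by the robust quasi-likelihood test of edgeR 4.0.16 (R 4.3.3, TMM, rows kept by filterByExpr, threshold 0.05). It was also run on counts simulated from a single mean profile with a fixed spread. Those counts lack the uneven ribosomal RNA share of the real files, so that run cannot show how the test behaves on them. Alternatives were DESeq2 1.42.0, RLE factors, other filters, row removal, a replicate block, summed files and each replicate left out; summing members with their copies, and summing files without 40S, were added after the data were seen. SEs were taken as the fold change over the square root of the F statistic. Named genes were the members, the 2 highest and 2 lowest of each list, the rows next to Chchd2, and genes overlapping members. Genes under 50 counts, Pmpca, Eif2ak1, row pairs and copy rows were chosen after their values were seen. Members and lists were chosen with earlier results of these data known. Names, positions and windows come from RefSeq (GRCh38.p14), which matched all 10 members.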

Additional observations from a re-analysis of the deposited data

How the results depend on the processing

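With DESeq2 size factors, TMM without CT010467.1 and mitochondrial rows, or a prior count of 0.5, all 10 input ratios stayed inside their intervals. Scaling by total counts gave 4 members at least 2-fold apart (3 higher, 1 lower) in place of 2 and put Chchd2 at -1.94; a minimum of 200 counts left 1 such member, since Chchd10 and Clpp were no longer kept. Summing copy rows put Chchd2 at -1.18.

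The settings tested different numbers of rows. Polysome calls went from 9 of 241 rows to 0 of 6044 with DESeq2 (57 rows at an unadjusted p under 0.05). With edgeR without a filter there were 0 of 6044 (153 such rows), and without ribosomal RNA rows 26 of 165. Summed files gave 89 of 856, and those sums without the 40S files 42 of 727. The cause was not tested. Leaving out salubrinal replicate 1 gave 3 calls of 463 rows, replicate 2 gave 39 of 295 and replicate 3 gave 4 of 378. Leaving out control replicate 2 gave 5 of 296. Without control replicate 1 or control replicate 3, edgeR made 0 of 252 and 0 of 309 (22 and 28 rows had an unadjusted p under 0.05). RLE factors gave 11 of 241. With the replicate block there were 4 calls of 241. Deviations of same-numbered samples correlated at 0.02, 0.35 and 0.42, and salubrinal replicate 1 did not correlate best with its own number, so the numbers were not taken as pairs. HTRA2 passed under none of these settings that tested it and turned negative with DESeq2 (-0.16), without a filter (-0.13) and without salubrinal replicate 3 (-1.29) or control replicate 3 (-0.15); over the replicates left out it ran from -1.29 to 0.35. Ribosomal RNA removal left HTRA2 below the filter. Depth limits the fraction files: 9 of 10 members held at most 3 counts in any file.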
